A study of Mus musculus with 24 samples.

Results

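Ubxn11, Hmgn2, Rpl11, Runx3 and the clone transcript AK032599 were followed in mouse thymus that had or lacked stathmin. The 4 named genes lie near Stmn1, the stathmin gene, on mouse chromosome 4, and AK032599 is a cDNA clone whose array description names Srrm1, another gene of that stretch. The members were all gene probes that carry a member's name or accession, and there were 7 of them among 41174 gene probes. All 7 were among the 35185 probes bright enough to be tested. They were chosen by their place near Stmn1 and by their measured log2 ratios in stathmin-lacking thymus. The values of the stathmin comparisons are therefore given as a description, without a test. The comparisons for loss of p27 are tested, but they use the same arrays, so they are not free of that choice.

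Thymus RNA came from C57BL/6 mice aged 15 weeks, 6 per genotype, with 3 females and 3 males per genotype and no record of which mouse was which. Wild-type mice were compared with 3 mutant genotypes. The p27 knockout lacks Cdkn1b, the gene of the cell-cycle kinase inhibitor p27, the stathmin knockout lacks Stmn1, the gene of a protein that takes microtubules apart, and the double knockout lacks both. Each of the 24 arrays read a thymus in Cy5 against a pool of fibroblast RNA of all the genotypes in Cy3, and no dye was swapped. A level here is the log2 ratio of thymus over that pool. The labels give neither the promoter, the targeting construct nor the breeding of the knockouts, and the study's title names the control of cell proliferation by both proteins as its question.

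Several of these proteins have well-known roles. Ubxn11 carries a UBX domain, the fold by which adaptors dock on the unfolding ATPase Vcp (p97), and it binds Rnd GTPases. Hmgn2 binds nucleosomes and opposes the linker histone H1. Rpl11 is a protein of the large ribosomal subunit that, with Rpl5 and the 5S RNA, can also bind Mdm2 and so stabilise p53. Runx3 is a DNA-binding factor that silences Cd4 and promotes the cytotoxic programme in CD8 thymocytes. Srrm1 is a splicing coactivator of the nuclear matrix.

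Of 1024 measured genes of chromosome 4, Ubxn11 was the 10th and Hmgn2 the 13th from Stmn1 on the lower-coordinate side, and Runx3 was the 10th, Srrm1 the 12th and Rpl11 the 30th on the other side. The 250 bases upstream of the annotated starts of Ubxn11, Hmgn2, Runx3 and Rpl11 are shown because these genes share a neighbourhood while their levels differed in direction. They are from RefSeq (GRCm38.p6), read 5′ to 3′ on the gene's strand. Capitals mark a CCAAT box (CCAAT), a GC box (GGGCGG) or a RUNX core (TGTGGT) on either strand. Runx3 has 2 annotated starts. The windows are chr4:134102333-134102582 (+) for Ubxn11, chr4:133967992-133968241 (-) for Hmgn2, chr4:135120395-135120644 (+) and chr4:135152295-135152544 (+) for Runx3, and chr4:136053394-136053643 (-) for Rpl11.
Ubxn11: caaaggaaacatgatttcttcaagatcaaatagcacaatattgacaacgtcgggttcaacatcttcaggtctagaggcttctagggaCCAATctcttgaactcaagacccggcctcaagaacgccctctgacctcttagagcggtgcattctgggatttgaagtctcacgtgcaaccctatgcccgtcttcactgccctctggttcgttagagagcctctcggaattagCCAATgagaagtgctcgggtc
Hmgn2: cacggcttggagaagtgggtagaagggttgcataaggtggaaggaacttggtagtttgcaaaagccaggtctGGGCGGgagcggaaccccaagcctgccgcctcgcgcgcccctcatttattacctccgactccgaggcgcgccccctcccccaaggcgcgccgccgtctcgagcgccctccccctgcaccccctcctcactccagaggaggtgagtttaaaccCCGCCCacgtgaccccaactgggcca
Runx3 start 1: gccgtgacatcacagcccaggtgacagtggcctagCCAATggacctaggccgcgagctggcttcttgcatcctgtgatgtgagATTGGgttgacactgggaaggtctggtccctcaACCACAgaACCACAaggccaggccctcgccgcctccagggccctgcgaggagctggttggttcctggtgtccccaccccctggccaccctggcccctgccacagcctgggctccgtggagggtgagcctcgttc
Runx3 start 2: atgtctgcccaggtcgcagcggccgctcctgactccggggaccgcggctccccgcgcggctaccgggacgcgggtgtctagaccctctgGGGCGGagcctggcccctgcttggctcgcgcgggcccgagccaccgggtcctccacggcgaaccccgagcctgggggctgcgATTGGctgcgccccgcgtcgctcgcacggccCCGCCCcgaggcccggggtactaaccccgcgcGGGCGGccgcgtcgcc
Rpl11: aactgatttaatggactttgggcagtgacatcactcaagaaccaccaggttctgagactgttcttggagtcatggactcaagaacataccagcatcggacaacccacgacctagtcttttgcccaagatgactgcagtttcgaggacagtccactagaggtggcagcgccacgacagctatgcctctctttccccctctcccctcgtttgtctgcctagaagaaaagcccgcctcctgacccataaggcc
The Ubxn11 window held 2 CCAAT boxes and no GC box, and the Hmgn2 window held 2 GC boxes and no CCAAT box, although these were the members whose levels followed each other most closely. The Rpl11 window held none of the 3 motifs. The window of Runx3 start 1 held 2 RUNX cores and 2 CCAAT boxes, and that of start 2 held 3 GC boxes and 1 CCAAT box. Of 32851 promoter windows of 250 bases, 33.8% held a CCAAT box, 32.7% a GC box and 14% a RUNX core. The searched motifs do not overlap in these windows, and a match in letters is not a binding site.

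The genotype labels were checked on the deleted genes. The Stmn1 probe A_52_P319161 lay between 2.69 and 3.34 in wild type and between -3.65 and -1.87 in the stathmin knockout, a difference of -6.04 (SE 0.34, limma adjusted p = 1.68e-10). A different Stmn1 probe, A_51_P495641, still lay between 1.72 and 2.29 in the stathmin knockout, against 3.22 to 3.87 in wild type. The Cdkn1b probe ran from -1.41 to 0.98 on the 11 p27-lacking arrays with a value and from 1.21 to 2.30 on the 11 others, and the spots of wild type replicate 1 and double knockout replicate 1 were outliers without a value. Its difference was -1.50 (SE 0.34, adjusted p = 0.0790) for p27 knockout minus wild type, which did not pass 0.05, and -2.14 (SE 0.34, adjusted p = 0.0462) for double minus stathmin knockout. With the slide as a block the latter adjusted p was 1.00, and when p27 knockout replicates 5 and 6 were left out it was 0.0744. Single arrays lay nearer to the controls than their group did. Double knockout replicate 2 was at 0.97 with the others of its group between -1.41 and -0.61, and its raw Cy5 of 29087 was close to the wild-type median of 28771. The p27 knockout replicate 4 was at 0.98 with the others between -0.66 and 0.67. Without double knockout replicate 2 the double minus stathmin knockout value was -2.51 (adjusted p = 0.000442), and without p27 knockout replicate 4 the p27 knockout minus wild type value was -1.63 (adjusted p = 0.0327). The p27 knockout replicates 5 and 6 stood apart over all probes. Replicate 6 had a mean correlation of 0.210 and replicate 5 of 0.558 with the other arrays, against 0.770 to 0.859 for the remaining 22, and the median of 10 double-positive thymocyte markers was 0.15 in replicate 6 against at least 5.05 in every other array. The p27 knockout arrays were also dim, with a 99th percentile of Cy5 spot intensity of 19.4 to 170.6 kilounits against 56.3 to 285.7 in wild type. It was 130.7 to 339.8 in the stathmin and 200.2 to 320.0 in the double knockout. The 6 slides each held 1 array of every genotype, and a genotype always had the same place on the slide, so that place and genotype cannot be told apart. The number of arrays limits the precision.

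AK032599 had the second-lowest difference of all 35185 probes between stathmin knockout and wild type, after Stmn1 itself. Its levels (lowest, median, highest of 6 arrays) were 0.55, 1.06 and 2.35 in wild type and 1.17, 2.08 and 3.61 in the p27 knockout. They were -2.30, -1.13 and -0.49 in the stathmin knockout and -1.89, -1.52 and -0.14 in double knockout mice. Every one of the 12 stathmin-lacking arrays was below every one of the 12 others. Only 2 probes of all tested separated the arrays in this direction (0.00568% of 35185), this one and Stmn1 probe A_52_P319161, and 2 further probes (0.00568%), of Olfml2a and Alcam, separated them in the other direction. These values chose the member and are no test of it.

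The mean difference of AK032599 was -2.38 (SE 0.40) for stathmin knockout minus wild type, 5.22-fold lower, and -3.51 (SE 0.40) for double minus p27 knockout, 11.4-fold lower. Without p27 knockout replicates 5 and 6 the latter was -3.20. The sizes of these log2 ratio differences moved with the processing. With the deposited scanner log ratios, centred on each array's median, they were -3.08 and -3.89. The authors' deposited table gave -1.08 and -0.83, but its values track spot brightness rather than the dye ratio. Those sizes are in another measure and are no smaller estimate of the ratio differences. Within slides the log2 ratio difference was below 0 in all 12 comparisons, from -4.69 to -1.34, and 0.17% of probes were lower in all 12. Its spot was not well above background on double knockout replicate 1. The median Cy5 spot intensity was 2758 in wild type and 1541 in the p27 knockout, against 433 in the stathmin and 547 in the double knockout, while the median Cy3 intensity stayed between 750.3 and 831. On single channels, scaled so that all arrays share 1 brightness distribution, stathmin knockout minus wild type was -2.48 in Cy5 and -0.09 in Cy3.

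The other probes described as Srrm1 had smaller stathmin differences than the clone. Probe A_51_P446098 (Srrm1) had mean levels of 0.09 ± 0.45 in wild type and 1.37 ± 1.32 in the p27 knockout (SD, n = 6). Stathmin knockout arrays averaged -0.47 ± 0.46 and those of the double knockout -0.30 ± 0.93. The groups overlapped. Its difference was -0.55 (SE 0.47, adjusted p = 1.00) for stathmin knockout minus wild type and -1.67 (SE 0.47, adjusted p = 0.0138) for double minus p27 knockout, and the latter value was -1.10 without p27 knockout replicates 5 and 6. Probe A_52_P132229 (transcript ENSMUST00000084846) had differences of -0.37 (SE 0.35, adjusted p = 1.00) and 0.39 (SE 0.35, adjusted p = 0.402) in the same comparisons. Whether the clone belongs to an Srrm1 transcript was not settled here, since probe sequences were not used.

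**Figure D1:**
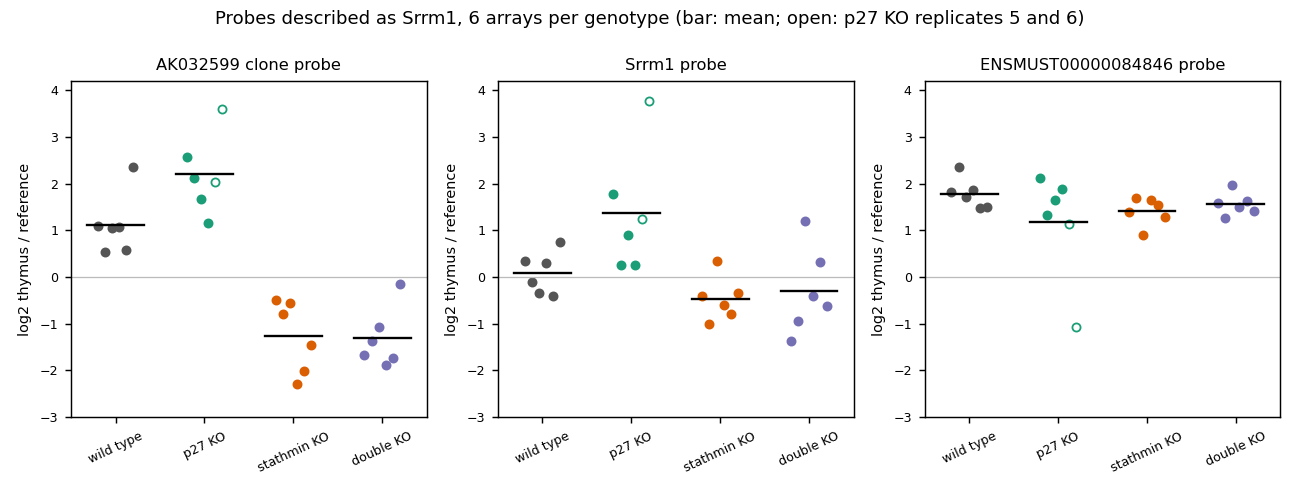
Log2 ratio of thymus over fibroblast reference (vertical axis) for the 3 probes described as Srrm1, by genotype, with 1 point per array, a bar at the mean and open points for p27 knockout replicates 5 and 6. The AK032599 arrays fall in separate ranges, -2.30 to -0.14 without stathmin and 0.55 to 3.61 with it, whereas the groups overlap for the other probes.

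Ubxn11 was the member with the highest level in stathmin-lacking thymus relative to its controls. Its levels were -0.37, 1.25 and 1.78 in wild type and -1.56, 0.25 and 0.96 in the p27 knockout. They were 1.53, 2.77 and 3.02 in the stathmin knockout and 2.12, 2.75 and 3.28 in double knockout mice. The stathmin-lacking arrays began at 1.53 and the others ended at 1.78, and the ranges overlapped through stathmin knockout replicate 3 and wild type replicate 2. The difference was 1.54 (SE 0.42) for stathmin knockout minus wild type, 2.91-fold, and 2.86 (SE 0.42) for double minus p27 knockout, 7.25-fold, or 2.26 without p27 knockout replicates 5 and 6. It was above 0 in all 12 within-slide comparisons, from 0.04 to 4.32, as were 0.506% of all probes. The median Cy5 intensity was 1623 in wild type and 485 in the p27 knockout, against 6091 and 5296 in the stathmin-lacking genotypes. On p27 knockout replicate 6 the spot was not well above background. The file calls this probe Ubxd5, and its accession gave the present name.

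Hmgn2 followed Ubxn11 across the arrays. Its levels were 2.01, 2.77 and 3.51 in wild type and 0.57, 2.50 and 2.78 in the p27 knockout. They were 3.09, 4.09 and 4.69 in the stathmin knockout and 3.55, 4.15 and 4.81 in double knockout mice. Wild type overlapped with the stathmin knockout. The p27 knockout lay below the double knockout, and the share of all probes separated in this way was not counted. The difference was 1.23 (SE 0.35) for stathmin knockout minus wild type and 2.08 (SE 0.35) for double minus p27 knockout, or 1.56 without p27 knockout replicates 5 and 6, and 11 of 12 within-slide comparisons were above 0.

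The ratio of Hmgn2 moved more through its reference dye than through the thymus dye. On single channels, stathmin knockout minus wild type was 0.21 in Cy5 and -1.02 in Cy3, and double minus p27 knockout was 0.43 in Cy5 and -1.65 in Cy3. The Cy3 channel held the same reference pool on every array, and only 0.0341% of probes had a Cy3 difference as large in the first of these comparisons. The raw Cy3 intensity of this spot ran from 9089 to 115454 over the 24 arrays, and it was low where Cy5 was high (Spearman -0.887 over 24 arrays, which share the spot and the scanner). The Cy5 spot was saturated on stathmin knockout replicate 2 and double knockout replicate 1. With the Cy5 channel alone, quantile-normalized, the differences were 0.32 and 0.67. What sets the Cy3 signal of this spot was not tested.

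Rpl11 was lower in stathmin-lacking thymus on its mRNA probe, A_51_P394524. Its levels were 1.51, 1.88 and 2.27 in wild type and 1.06, 2.01 and 2.17 in the p27 knockout. They were 0.38, 0.91 and 1.33 in the stathmin knockout and 0.43, 0.64 and 1.34 in double knockout mice. Only p27 knockout replicate 6, at 1.06, reached into the range of the stathmin-lacking arrays. Without p27 knockout replicates 5 and 6 the ranges did not overlap, which held for 0.0114% of probes in this direction. The difference was -1.0 (SE 0.21) for stathmin knockout minus wild type and -1.16 (SE 0.21) for double minus p27 knockout, and it was below 0 in all 12 within-slide comparisons.

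For this very bright spot, too, the reference dye took a part. Stathmin knockout minus wild type was -0.33 in Cy5 and 0.67 in Cy3, and double minus p27 knockout was -0.65 in Cy5 and 0.51 in Cy3. Raw Cy3 ran against raw Cy5 (Spearman -0.890 over 24 arrays). With the Cy5 channel alone the differences were -0.41 and -0.66. The Stmn1 probe A_51_P495641 had the like pattern, with -0.80 in Cy5 and 0.73 in Cy3 for stathmin knockout minus wild type.

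The other Rpl11 probe, A_52_P566208, is described as an unclassifiable skin clone. Its levels were -0.80, -0.18 and 0.46 in wild type and -2.13, -0.14 and 1.09 in the p27 knockout. They were -1.41, -1.12 and -0.34 in the stathmin knockout and -1.99, -1.06 and 0.23 in double knockout mice. The groups overlapped, the differences were -0.87 (SE 0.41) and -0.83 (SE 0.41), and 10 of 12 within-slide comparisons were below 0. Here the difference lay in Cy5 (-0.89 against -0.01 in Cy3 for stathmin knockout minus wild type).

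**Figure D2:**
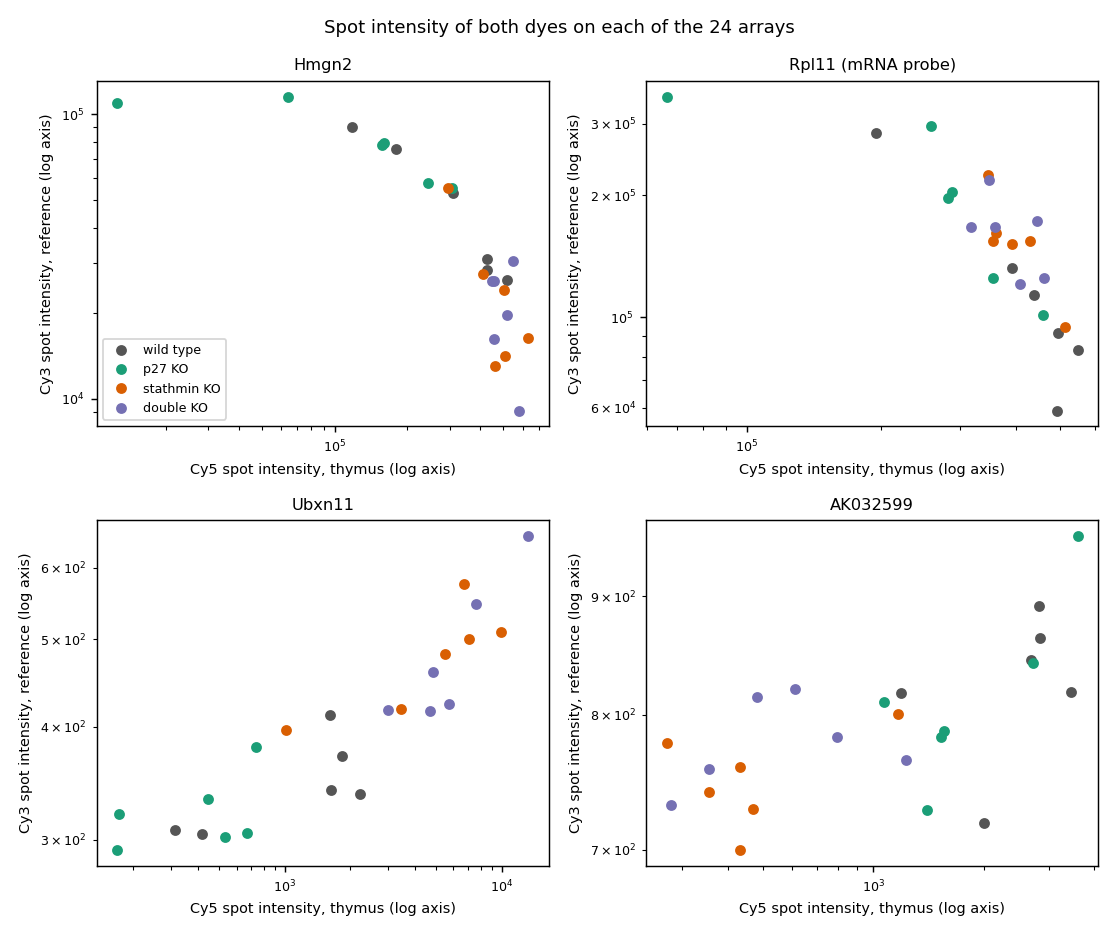
Raw Cy5 spot intensity of thymus (horizontal, log axis) against raw Cy3 spot intensity of the common reference (vertical, log axis), 1 point per array, coloured by genotype. Cy3 of Hmgn2 (9089 to 115454) and of the Rpl11 mRNA probe (59002 to 349346) is low where Cy5 is high, whereas Cy3 of Ubxn11 (292 to 650) is high where Cy5 is high and that of AK032599 stays between 699.7 and 955.

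Runx3 was read by 2 probes of the same mRNA, which went opposite ways. On probe A_52_P666059 the levels were -0.39, 0.83 and 1.39 in wild type and -1.39, -0.67 and 0.53 in the p27 knockout. They were -0.24, 1.13 and 1.91 in the stathmin knockout and 1.46, 1.81 and 2.21 in double knockout mice. The double knockout lay above all wild-type and p27 knockout arrays, with 1.46 just over the highest wild-type value of 1.39. The share of all probes separated in this way was not counted. The stathmin knockout overlapped with wild type. The difference was 0.45 (SE 0.36) for stathmin knockout minus wild type and 2.41 (SE 0.36) for double minus p27 knockout. On probe A_51_P494992 the levels were -0.23, 0.03 and 0.55 in wild type and 0.06, 0.80 and 2.22 in the p27 knockout. They were -0.11, 0.01 and 0.37 in the stathmin knockout and -0.21, -0.06 and 0.25 in double knockout mice. The differences there were -0.02 (SE 0.26) and -0.90 (SE 0.26). Over 24 arrays the probes had a Spearman correlation of -0.639, and it was -0.902 over the 12 stathmin-having arrays and -0.042 over the 12 others. Median Cy5 intensities of 388 to 2616 and of 624.6 to 746 were low for either probe, so no direction is given for Runx3 as a gene.

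**Figure D3:**
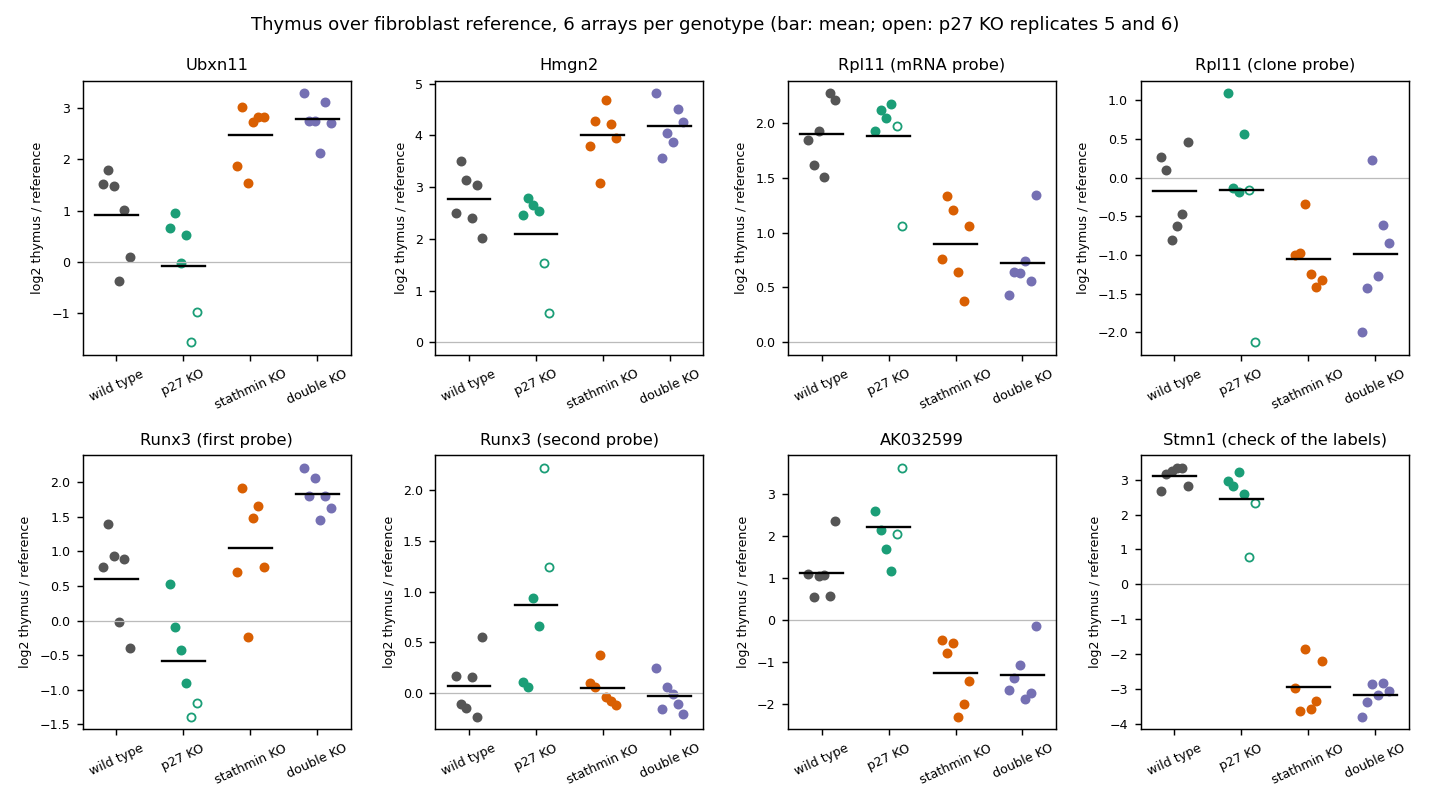
Log2 ratio of thymus over fibroblast reference (vertical axis) for the 7 member probes and Stmn1 probe A_52_P319161 by genotype, with 1 point per array, a bar at the mean and open points for p27 knockout replicates 5 and 6. Ubxn11 and Hmgn2 are higher and AK032599 and the Rpl11 mRNA probe lower in both stathmin-lacking genotypes, while the Runx3 panels differ from each other.

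All 7 probes had the same sign in stathmin knockout minus wild type and in double minus p27 knockout. These comparisons share no arrays. The same held for 63.7% of all tested probes, and the members were chosen with such values in view. Each slide gave its own stathmin knockout minus wild type and its own double minus p27 knockout.

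**Figure D4:**
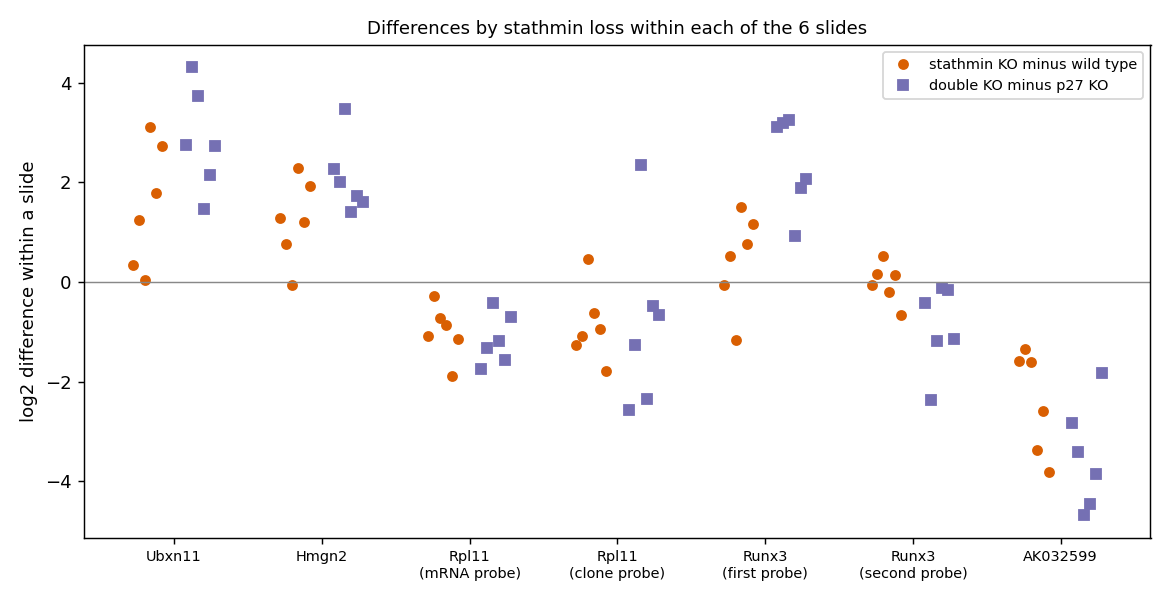
Log2 differences within each of the 6 slides (vertical axis) for the 7 member probes, circles for stathmin knockout minus wild type and squares for double minus p27 knockout. All 12 values are above 0 for Ubxn11 and below 0 for AK032599 and the Rpl11 mRNA probe, and those of the other probes lie on both sides.

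The brightness of the arrays moved with several members. Over the 12 arrays with stathmin, the Spearman correlation of a member's log2 ratio with the array's 99th percentile of Cy5 was 0.930 for Ubxn11, 0.853 for Hmgn2, 0.804 for Runx3 probe A_52_P666059, -0.776 for Runx3 probe A_51_P494992, -0.727 for AK032599, and 0.273 and 0.231 for the Rpl11 probes. Over the 12 stathmin-lacking arrays, whose 99th percentile ran from 130.7 to 339.8 kilounits, it was 0.364, 0.392, 0.531, -0.021, -0.042, -0.168 and -0.538 in the same order of probes. Over all 24 arrays it was 0.763 for Ubxn11, 0.764 for Hmgn2, 0.810 and -0.644 for the Runx3 probes, -0.674 for AK032599, and -0.433 and -0.405 for the Rpl11 probes. The median size of this 24-array correlation was 0.433 across the tested probes and the upper quartile 0.634, so that all members but Rpl11 lay beyond that quartile. The part of array brightness in the differences was not tested. Markers of some cell types also differed in the stathmin comparisons. All 7 adipocyte markers were above 0 for stathmin knockout minus wild type (median 0.88, 0 called). In double minus p27 knockout 4 of 7 rose (median 1.19), where 13.3% of all probes rose. Without p27 knockout replicates 5 and 6 that median was 0.46. For double knockout minus wild type 5 were above 0 and 2 below (median 0.23, 0 called). The median adipocyte level per array ran from 3.64 to 5.54 in wild type and from -0.13 to 5.26 in the p27 knockout. It was 4.96 to 6.73 in the stathmin and 4.05 to 6.30 in the double knockout. Of 6 macrophage markers, all were above 0 for stathmin knockout minus wild type (median 0.62, 0 called) and 3 rose in double minus p27 knockout (median 0.80). All 6 B cell markers were above 0 for stathmin knockout minus wild type as well (median 0.31, 0 called). Of these, 1 rose in double minus p27 knockout (median 0.93). For stathmin knockout minus wild type the skeletal muscle, natural killer and fibroblast markers had medians of 0.67, 0.26 and -0.16 (0 called). In double minus p27 knockout these were 2.20, 0.91 and -1.25, or 1.76, 0.56 and -0.69 without p27 knockout replicates 5 and 6. With all arrays 2 of 6 muscle and 2 of 6 natural killer markers rose. Of 7 fibroblast markers 5 fell, where 16.8% of all probes fell. Double-positive, mature T and dividing cell markers had medians of -0.21, 0.04 and 0.03 for stathmin knockout minus wild type, beside -0.01 over all probes. The part of any of these cell types in the members' values was not tested. In bulk tissue, fewer cells of a type and less RNA per cell cannot be told apart.

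For loss of p27, 0 of the 7 probes passed the threshold (limma, adjusted p under 0.05), with stathmin present (p27 knockout minus wild type) or absent (double minus stathmin knockout). Across all probes 0.00568% passed in each of these comparisons. At an unadjusted p under 0.05 there were 4 of 7 member probes for p27 knockout minus wild type, where 29.3% of all probes were so, and 1 of 7 for double minus stathmin knockout, where 1.16% were.

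For p27 knockout minus wild type, the lowest adjusted p among members were those of Runx3. Its probes gave -1.17 (SE 0.36, 95% interval -1.92 to -0.43, adjusted p = 0.0790) and 0.80 (SE 0.26, interval 0.27 to 1.34, adjusted p = 0.0795). AK032599 gave 1.08 (SE 0.40, interval 0.25 to 1.92, adjusted p = 0.0961), Ubxn11 -0.99 (SE 0.42, adjusted p = 0.125) and Hmgn2 -0.67 (SE 0.35, adjusted p = 0.196). Without p27 knockout replicates 5 and 6 these 5 values were -0.82, 0.37, 0.77, -0.39 and -0.15. The Rpl11 mRNA probe was at -0.01 (interval -0.45 to 0.43) and the clone probe at 0.02 (interval -0.82 to 0.86). Leaving out wild type replicate 6 brought 3 member probes past the threshold, the Runx3 probes and AK032599, beside 11.7% of all probes. Leaving out p27 knockout replicate 1 or replicate 2 brought both Runx3 probes past it, beside 11.2% and 6.76% of all probes. Leaving out p27 knockout replicate 4 brought AK032599 past it, beside 10.9%.

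For double minus stathmin knockout the values of all members but the Rpl11 probes were smaller in size. Runx3 probe A_52_P666059 gave 0.78 (SE 0.36, interval 0.04 to 1.52), Ubxn11 0.32 (interval -0.54 to 1.18), Hmgn2 0.17 (interval -0.54 to 0.89) and AK032599 -0.04 (interval -0.87 to 0.79), all with an adjusted p of 1.00. The Rpl11 probes were at -0.17 and 0.06 and the remaining Runx3 probe at -0.08.

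The interaction asks whether loss of both proteins departs from the sum of the single losses. It equals double minus p27 knockout less stathmin knockout minus wild type, and the members were chosen with such values in view. No member passed (0 of 7, and 0% of all 35185 probes), and 3 of 7 were at an unadjusted p under 0.05 beside 18.4% of all probes. Runx3 probe A_52_P666059 had the largest value, 1.95 (SE 0.51, interval 0.90 to 3.00, adjusted p = 0.258), followed by Ubxn11 at 1.32 (SE 0.59, interval 0.10 to 2.53, adjusted p = 0.259) and AK032599 at -1.13 (SE 0.57, interval -2.30 to 0.05, adjusted p = 0.285). Without p27 knockout replicates 5 and 6 these were 1.60, 0.72 and -0.82.

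The genes around Stmn1 were then taken by position alone, the 25 nearest measured genes on each side with the brightest probe of each. Besides 3 members (Hmgn2, Ubxn11 and Runx3) this gave 47 genes. None of the 47 passed the threshold for stathmin knockout minus wild type, where 0.00284% of all probes passed, namely the single Stmn1 probe A_52_P319161. At an unadjusted p under 0.05 (limma) there were 7 of 47 neighbours, a larger share than the 833 of 35185 probes (2.37%). None passed for double knockout minus wild type either, where 0.0114% of all probes did. There 8 of 47 were at an unadjusted limma p under 0.05, again a larger share than the 1630 of 35185 probes (4.63%). The neighbours are counted by their brightest probe and the background by all tested probes, so these shares come from unlike sets. The median size of the difference was 0.20 for these genes and 0.15 for all probes in stathmin knockout minus wild type, and no neighbour differed by more than 1 there.

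For double minus p27 knockout, 16 of the 47 neighbours passed, 8 higher and 8 lower, or 34.0%, beside 30% of all probes (13.3% higher and 16.8% lower). The share over the 47 is near the background. The lower genes were led by Myom3, a protein of the sarcomere's M band, with -3.51 (SE 0.86, adjusted p = 0.00712), Srrm1, and Pafah2, which is next to Stmn1 and encodes a phospholipase, with -1.53 (SE 0.29, adjusted p = 0.00370). Also lower were Rcan3, an inhibitor of calcineurin (-1.21), Rps6ka1, a kinase downstream of ERK (-1.12), Selenon (-1.05), Sh3bgrl3 (-0.80) and Zfp593 (-0.80). The higher genes were Zdhhc18, a palmitoyltransferase (2.07, SE 0.52, adjusted p = 0.00775), Cep85, a centrosomal protein (1.71), the cannabinoid receptor gene Cnr2 (1.58), the muscle ubiquitin ligase gene Trim63 (1.42), Kdf1 (1.29), the splicing factor gene Syf2 (1.21), Paqr7 (0.92) and the zinc transporter gene Slc30a2 (0.74). For p27 knockout minus wild type, Myom3, Srrm1 and Pafah2 were at 2.67, 1.28 and 0.83, and Zdhhc18, Cep85 and Cnr2 at -1.50, -1.24 and -1.19. In the same order they were at -0.86, -0.55, -0.55, 0.20, 0.08 and -0.16 for stathmin knockout minus wild type. Of the 16, only Kdf1, Trim63, Slc30a2, Paqr7 and Sh3bgrl3 differed more in the latter comparison than in the former. Without p27 knockout replicates 5 and 6, 9 of the 47 passed, beside 15% of all probes. Of the 18 genes that remained when the window was narrowed to the 10 nearest on each side, 9 passed with all arrays, or 50%.

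Among these 47 neighbours, 2 were on the same side of 0 in all 12 within-slide comparisons, and they were picked out after their values were seen. Of all probes, 0.506% were higher and 0.17% lower in all 12. Paqr7, a membrane progestin receptor gene directly beside Stmn1, was higher, with 0.71 for stathmin knockout minus wild type and 0.92 for double minus p27 knockout. Sh3bgrl3, a small thioredoxin-fold protein gene next to Ubxn11, was lower, with -0.68 and -0.80.

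**Figure D5:**
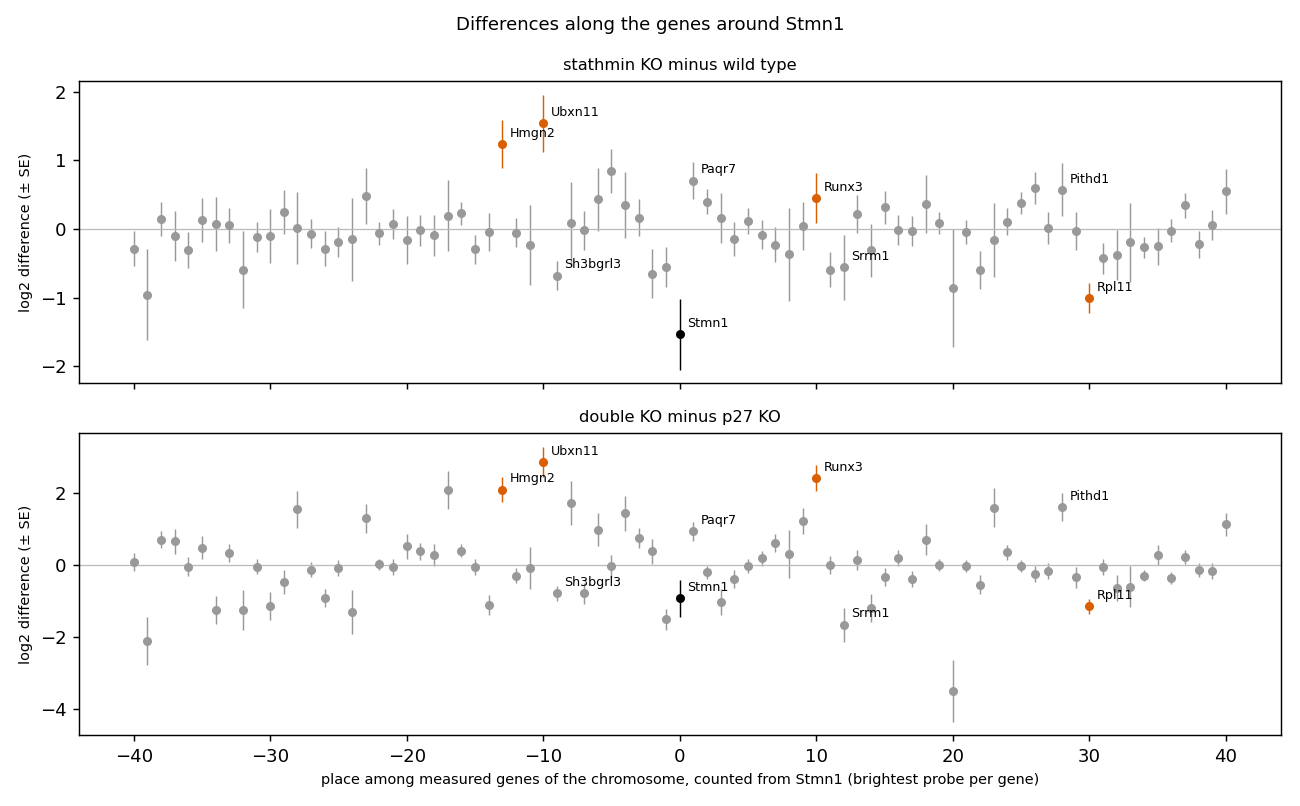
Log2 difference with its SE (vertical axis) of stathmin knockout minus wild type (top) and double minus p27 knockout (bottom) for the measured genes around Stmn1, placed by their order along the chromosome, with members in orange and Stmn1, by its brighter probe A_51_P495641, in black. Ubxn11 (1.54) and Hmgn2 (1.23) are the highest points of the top panel, and genes between them and Stmn1 lie on both sides of 0.

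The probes most like each member over the 24 arrays were found by Spearman correlation of log2 ratios among all tested probes of other genes. Ubxn11 was most like Hmgn2 (0.935), the complement gene C1qa (0.917) and Pithd1 (0.897). C1qa and Pithd1 are the 42nd and 28th measured genes from Stmn1 on its Runx3 side. Hmgn2 was most like Pithd1 (0.937), Ubxn11 (0.935) and the myosin gene Myo6 (0.928). AK032599 was most like a probe of Runx2 (0.859), 9530039L23Rik (0.854) and Fut10 (0.853). The Rpl11 mRNA probe was most like 2610002D18Rik (0.825), AK032599 (0.808) and Stmn1 (0.790). Runx3 probe A_52_P666059 was most like Dnmbp (0.954), Nwd1 (0.949) and Cnnm3 (0.945). These points share arrays, slides and genotypes, so the correlations are a description. Without p27 knockout replicates 5 and 6, Rpl11 was the gene most like AK032599, with 0.892 over 22 arrays.

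Genes that work with the members were read in 5 lists, with 100 genes measured. For stathmin knockout minus wild type 0 of 100 passed by limma, with 0 at an unadjusted p under 0.05. For p27 knockout minus wild type 0 of 100 passed, with 26 at an unadjusted p under 0.05, for double minus stathmin knockout 0 passed, with 1, and for the interaction 0 passed, with 20. For double minus p27 knockout 22 of 100 passed, beside 30% of all probes. Among 17 Ubxn and Vcp partners, 1 rose and 2 fell in that comparison, and Vcp itself was at -0.04 for stathmin knockout minus wild type and at -0.70 for double minus p27 knockout (adjusted p = 0.0457). The Rnd GTPase gene Rnd1 was at 1.55 for p27 knockout minus wild type (adjusted p = 0.0790).

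Among 13 measured HMGN, HMG box and linker histone genes, 0 rose and 1 fell in double minus p27 knockout, and Hmgn1, the closest relative of Hmgn2, was at -0.19 for stathmin knockout minus wild type. Of 43 other genes of the large ribosomal subunit, 3 rose and 3 fell in double minus p27 knockout. Their median was -0.02 for stathmin knockout minus wild type, beside -1.0 on the Rpl11 mRNA probe, and Rpl5 was at -0.17. Of the 10 genes of the 5S particle and the p53 pathway, 3 rose and 3 fell in double minus p27 knockout. The risers were Heatr3 (1.33), Nop53 (1.31) and Brix1 (0.71), and the fallers Trp53 (-2.36), Cdkn2a (-1.84) and the p21 gene Cdkn1a (-1.07). In the same order these genes were at 0.39, 0.17, -0.15, -0.56, -0.14 and -0.33 for stathmin knockout minus wild type. For p27 knockout minus wild type they were at -0.75, -1.08, -0.60, 1.58, 1.47 and 1.05. Of 17 Runx factors and Runx targets in T cells, 4 rose and 2 fell in double minus p27 knockout. The risers were the integrin gene Itgae (2.14), the granzyme gene Gzmb (1.82), Ifng (1.19) and Prf1 (0.99), and the fallers Ccr9 (-0.94) and Runx2 (-0.91). For stathmin knockout minus wild type these genes, in the same order, were at 0.54, 0.38, 0.78, -0.07, -0.40 and -0.31. They were at -0.71, -0.68, 0.26, -0.66, 0.63 and 0.47 for p27 knockout minus wild type. The list medians for stathmin knockout minus wild type were 0.03, 0.07, -0.02, -0.16 and -0.07 for the Ubxn, HMGN, ribosomal, 5S and Runx lists, in that order. Those for double minus p27 knockout were 0.06, 0.25, 0.22, 0.16 and 0.24. Without p27 knockout replicates 5 and 6 the latter were 0.14, -0.23, 0.05, 0.005 and -0.015.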

How the data were processed

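The members and all lists were chosen with earlier results of these data known. The authors read spot and local background intensity of both dyes with the scanner software Agilent Feature Extraction, version 9.1.3.1 (per the file headers). The deposited log10 ratios (Cy5 over Cy3) were dye-normalized by that software, per the file headers. The authors also deposited a table of log2 values for all 24 arrays, with no account of how in the sources used here. Its correlation with the mean brightness of both dyes was 0.999895 or more on each array, and with the log2 ratio 0.067 or less, so it follows brightness. Its column medians ran from 8.62 to 10.6, and its centring stays unknown.

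Files were loaded with data.table (version 1.17.8) and turned into log2 ratios in R 4.3.3 with limma 3.58.1: normexp background correction (offset 50), control spots at weight 0, loess within each array, outlier spots left out, spots averaged per probe. Probes were kept if Cy5 lay well above background on 6 or more of the 24 arrays (35185 of 41174). The accession or symbol of 29610 probes matched the RefSeq gene table (GRCm38.p6), which gave names and gene order only. Limma's moderated test used all 24 arrays with genotype as the only term, Benjamini-Hochberg adjustment over all kept probes and a threshold of 0.05. On simulated ratios of 35185 probes with changes in the stathmin knockout, this fit recovered 73% of changes of 2 and 28% of changes of 1 (log2). The simulated noise was independent for each probe and array, with no effect shared by a slide or an array. These shares are therefore no measure of power on the real arrays.

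The mice were separate biological replicates per the labels. The main fit did not pair samples by replicate number or by slide. Same-numbered arrays of different genotypes had deviations that correlated by a median of 0.038, and 14 of 36 pairs were over 0.1. Arrays on the same slide correlated more, by a median of 0.146, with 21 of 36 pairs over 0.1. Arrays of different genotype, number and slide had a median of -0.027, with 52 of 162 pairs over 0.1. Outside the p27 knockout, same-numbered arrays lay on the same slide. Slides were taken from the file headers. Named genes were the members with every probe, Stmn1 and Cdkn1b, the neighbours past the threshold in any comparison, the 3 genes most like each member, and up to 4 genes per list by lowest p in the 3 tested comparisons. Further list genes (Hmgn1, Rpl5, Heatr3, Brix1, Ifng, Ccr9, Runx2) were named after their values were seen. Alternatives were no background correction, the deposited log10 ratios centred on the median, Cy5 alone, the authors' table, both probe filters, replicate and slide blocks, array weights, scaling between arrays, and leaving arrays out.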

Additional observations from a re-analysis of the deposited data

Results flagged for a closer look

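In each of 28 groups of 6 arrays (7 member probes in 4 genotypes), the highest or lowest array was compared with the rest by Dixon's ratio, which flags about 1 in 20 groups by chance. It singled out 3 arrays. On the Rpl11 mRNA probe, p27 knockout replicate 6 was at 1.06 with the other arrays of its group between 1.93 and 2.17. On the same probe, double knockout replicate 6 was at 1.34 with the others between 0.43 and 0.74. For AK032599, wild type replicate 6 was at 2.35 with the others between 0.55 and 1.10. The p27 knockout array is the one with the lowest correlation with all other arrays (0.210), and wild type replicate 6 and double knockout replicate 6 lay on 1 slide.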

How the results depend on the processing

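Of 729 alternative values of the members' tested differences, 11 passed the threshold that their main value missed and 50 changed sign. The described stathmin differences kept their sign in all alternatives but the authors' table, except for the dim Runx3 probe A_51_P494992, which had the other sign in 12 alternative values. In the authors' table, which follows brightness and where the median of all probes was -0.57 for p27 knockout minus wild type and 0.68 for double minus p27 knockout, 6 values of the other probes had the other sign. AK032599 there gave -1.08 for stathmin knockout minus wild type and -0.83 for double minus p27 knockout, against -2.38 and -3.51, and -3.08 and -3.89 with the deposited ratios. Hmgn2 gave -0.20 in the authors' table and the Rpl11 mRNA probe 0.20 for stathmin knockout minus wild type. The authors' table values are differences in the mean brightness of both dyes rather than in their ratio, and so in another measure. The cause of the changes in sign was not tested. Limits of signal are the saturated Hmgn2 spots and the dim Runx3, Ubxn11 and AK032599 spots.

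Neither replicate number nor slide was a term of the main fit. With a replicate block 0 member probes passed in each tested comparison, and 2 probes of all passed for p27 knockout minus wild type, 1 for double minus stathmin knockout, 0 for the interaction and 10450 for double minus p27 knockout. With the slide as a block these counts were 0, 0, 0 and 11742.

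Member probes past the threshold for p27 knockout minus wild type were 0 in the main setting, 2 in the authors' table (26.3% of all probes passed) and 1 with array weights (11.8%), and from 0 to 3 when 1 array was left out (3 without wild type replicate 6). Neighbours past it in that comparison were 0, and 14 in the authors' table, 2 with array weights and from 0 to 5 with 1 array left out (5 without p27 knockout replicate 1 or 4). For double knockout minus wild type they were 3 with array weights (1.17% of all probes). For double minus p27 knockout they were 16, against 9 with Cy5 alone (29.9% of all probes passed), 31 in the authors' table (52%), 9 without p27 knockout replicates 5 and 6 (15% of all probes), 9 of the 18 genes left among the 10 nearest on each side (50%, against 34.0% of the 47), and from 10 (without double knockout replicate 6, 24% of all probes) to 17 with 1 array left out.

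The values that changed sign were these. For p27 knockout minus wild type, the Rpl11 mRNA probe gave 0.16 with array weights, 0.034 in the authors' table, 0.14 with Cy5 alone, 0.0050 without background correction, 0.17 without p27 knockout replicates 5 and 6, and from -0.089 to 0.15 with 1 array left out. The Rpl11 clone probe gave -0.37 with the deposited ratios, -0.68 in the authors' table, -0.41 with Cy5 alone, and from -0.23 to 0.41 with 1 array left out. The authors' table gave -0.27 for AK032599 and -0.14 for Runx3 probe A_51_P494992. For double minus stathmin knockout, AK032599 gave 0.50 with array weights, 0.085 with Cy5 alone, 0.025 without background correction, 0.14 with scaling between arrays, and from -0.28 to 0.11 with 1 array left out. Hmgn2 gave -0.023 in the authors' table, -0.90 with scaling, and from -0.0077 to 0.31 with 1 array left out. The Rpl11 mRNA probe gave 0.15 with array weights and 0.025 in the authors' table, the clone probe from -0.18 to 0.26 with 1 array left out, and Ubxn11 -0.24 with scaling. For the interaction, the authors' table gave 0.25 for AK032599 and 0.025 for Runx3 probe A_51_P494992, scaling gave 0.25 for the Rpl11 mRNA probe, and the Rpl11 clone probe gave -0.10 with array weights, -0.45 without p27 knockout replicates 5 and 6, and from -0.35 to 0.29 with 1 array left out.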
